A study of Mus musculus with 16 samples.

Results

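The constitutive proteasome genes were taken as every gene on the array whose symbol is Psm followed by a letter from a to g and a number, leaving out the immunoproteasome subunits Psmb8, Psmb9 and Psmb10. The rule used names alone and no measured value. It found 40 of 18138 gene symbols and 60 of 25697 probes. Of the 40 genes, 37 were measured, meaning that at least 1 of their probes had a detection p under 0.05 on at least 4 of the 16 arrays. The other 3, the alpha ring genes Psma1, Psma3 and Psma6, had 1 probe each and were detected on 0 of 16 arrays. Psmd3, Psmg1 and Psmg4 were not analysed here.

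The proteasome breaks down proteins that carry ubiquitin chains. Its barrel, the 20S core, is built from rings of alpha subunits, which form the gate, and rings of beta subunits, of which Psmb5, Psmb6 and Psmb7 hold the cutting sites. A cap, the 19S particle, binds the ubiquitin chain and unfolds the protein with a ring of ATPases (Psmc genes), while its other subunits (Psmd genes) recognise and remove ubiquitin. Assembly chaperones (Psmg genes, Psmd5, Psmd9 and Psmd10) help build both parts, the Psme proteins are other caps, and Psmf1 was first described as an inhibitor. When proteasome activity is short, the transcription factor NRF1 (Nfe2l1) raises the subunit genes together in mammalian cells, and in the liver NRF1 and its relative NRF2 (Nfe2l2) also act on genes of lipid and detoxification metabolism.

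Livers were compared in a design of 2 genotypes by 2 diets with 4 arrays in each of 4 groups. The strain of all groups was 129SV/C57BL/6. For 30 days, the wild-type (WT) and the c-Met knockout (KO) groups each received 1 of 2 diets. These were a control chow and a diet with 2% cholesterol and 0.5% sodium cholate, called high cholesterol here. c-Met is the receptor of hepatocyte growth factor. The labels used here give neither the cells in which Met was deleted nor the Cre line. They number 4 replicates per group without saying that each is a separate animal, so the p-values measure the spread between these samples, which may be technical in part. The single Met probe was detected on 7 of 16 arrays, and its place relative to the deletion is not given, so it does not check the genotype labels.

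Between 10028 and 11952 of 25697 probes were detected per array. Albumin (Alb) was detected on 16 arrays, and 13 of 14 hepatocyte markers were measured (Fgb was not kept). The noise of the arrays moved with the diet: the SD of the signal over probes never detected was 4.47 to 5.51 on chow and 6.54 to 8.08 on high cholesterol, and its part in the results was not tested. Values are log2 signals after background correction and quantile normalization. Each gene is given by its brightest kept probe, and levels of different probes cannot be set against each other. Calls are at an adjusted p of 0.05 (limma, Benjamini-Hochberg over 9265 genes). The number of arrays limits the precision, and in bulk liver fewer cells of a type and less RNA per cell cannot be told apart.

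On the high cholesterol diet a few proteasome genes rose and a few others fell, with 19S subunits among both, and most did not pass the test. In WT liver 4 of 37 rose (Psmd2, Psmd8, Psmc6 and Psme1) and 3 fell (Psmg3, Psmc3 and Psmb2), where 25.4% of all genes tested were called, 13.6% higher and 11.8% lower. In KO liver 7 rose (Psmd2, Psmd8, Psmc6, Psme1, Psmb5, Psmd6 and Psmd11) and 1 fell (Psmc2), where 27.6% of all genes were called, 15.2% higher and 12.4% lower. Averaged over the genotypes, 7 rose and 8 fell, where 43.2% of all genes were called, 21.7% higher and 21.6% lower. Psmd2 and Psmc6, counted as higher each time, passed the filter through the diet in which they were high. Among the 33 members detected on all 16 arrays, 2 rose and 3 fell in WT, and 4 rose and 1 fell in KO. Of the 6475 genes with such a probe, 783 rose and 779 fell in WT, and 817 rose and 705 fell in KO. The median difference over the 37 members was -0.07 in WT and -0.10 in KO, beside -0.02 and -0.03 over all genes. The KO median turned sign with the mean of the probes of each gene (0.0754) and without chow KO replicate 4 (0.00875).

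The split of calls depended on how the arrays were scaled. With each array scaled to its median instead of quantile normalized, 3 members rose and 8 fell in WT, 4 rose and 9 fell in KO, and 4 rose and 16 fell averaged over the genotypes. Of the 9265 genes, 1099 rose and 1315 fell in WT under that scaling, 1016 and 1347 in KO, and 1614 and 2419 averaged. That scaling moved the median of all genes to -0.089 in WT, -0.108 in KO and -0.106 averaged, and the member median to -0.321, -0.256 and -0.284. Read against the all-gene median, 10 of 37 members lay above it in WT and 16 in KO under median scaling, and 14 and 18 under quantile normalization. The calls of Psmd2, Psmc6 and Psmd8 as higher in WT, and of Psmd2, Psmc6, Psmb5 and Psmd6 as higher in KO, held under both. Those of Psmc6, however, ended without the background correction and in the authors' normalized values.

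**Figure D1:**
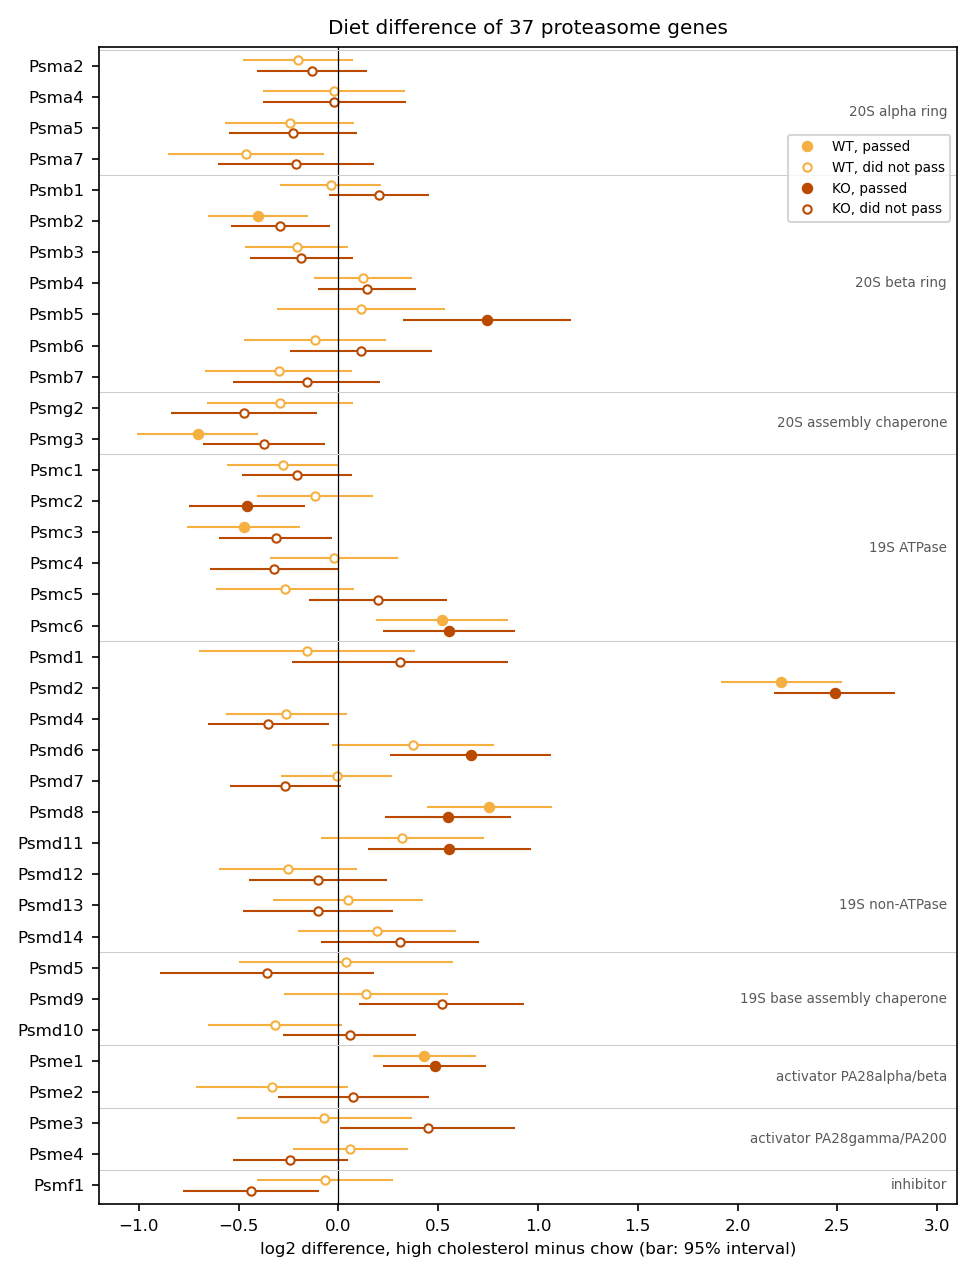
Difference between high cholesterol and chow for the 37 measured proteasome genes, grouped by role, in log2 units on the x axis, with WT and KO as separate points. Bars are 95% intervals of the fit, and filled points passed an adjusted p of 0.05. Psmd2 lies at 2.22 in WT and 2.49 in KO, while the other genes lie between -0.71 and 0.76 under quantile normalization.

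Promoter sequences are shown for 4 genes whose calls the account turns on: Psmd2 and Psmd8, higher in both genotypes, Psmb5, higher in KO, and Psmg3, lower in WT. They come from RefSeq (GRCm38.p6), each running from 250 bases before the start of the gene to 50 after it on the gene's strand. Psmd2 lies at chr16:20651402-20651701 on the plus strand, Psmd8 at chr7:29180624-29180923 on the minus strand, Psmb5 at chr14:54617946-54618245 on the minus strand and Psmg3 at chr5:139826845-139827144 on the minus strand. Capitals mark the core of an antioxidant response element, the motif that NRF1 and NRF2 bind with small MAF partners, searched as TGACNNNGC or TGAGNNNGC on both strands.
Psmd2: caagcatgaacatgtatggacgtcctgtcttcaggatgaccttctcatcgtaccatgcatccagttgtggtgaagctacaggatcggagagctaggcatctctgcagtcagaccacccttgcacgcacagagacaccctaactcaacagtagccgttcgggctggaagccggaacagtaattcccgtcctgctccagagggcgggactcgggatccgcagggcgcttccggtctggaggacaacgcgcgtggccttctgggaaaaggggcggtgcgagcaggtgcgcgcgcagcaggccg
Psmd8: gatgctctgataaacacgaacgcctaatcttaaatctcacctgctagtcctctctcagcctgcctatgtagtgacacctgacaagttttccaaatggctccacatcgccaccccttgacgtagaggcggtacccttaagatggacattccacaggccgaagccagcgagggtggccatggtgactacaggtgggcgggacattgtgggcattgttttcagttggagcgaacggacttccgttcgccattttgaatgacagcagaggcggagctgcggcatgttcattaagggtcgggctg
Psmb5: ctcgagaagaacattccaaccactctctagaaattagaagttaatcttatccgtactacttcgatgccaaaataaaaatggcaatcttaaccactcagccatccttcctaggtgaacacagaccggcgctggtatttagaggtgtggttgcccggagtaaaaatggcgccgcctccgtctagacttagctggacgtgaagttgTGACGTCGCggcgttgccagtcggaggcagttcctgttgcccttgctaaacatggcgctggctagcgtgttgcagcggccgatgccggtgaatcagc
Psmg3: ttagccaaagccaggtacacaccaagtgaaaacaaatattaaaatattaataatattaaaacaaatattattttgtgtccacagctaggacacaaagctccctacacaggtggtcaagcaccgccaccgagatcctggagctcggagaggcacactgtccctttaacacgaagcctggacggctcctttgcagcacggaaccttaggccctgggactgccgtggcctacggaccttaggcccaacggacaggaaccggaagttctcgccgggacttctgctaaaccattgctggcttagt
The core stood once in the Psmb5 window, as TGACGTCGC on the gene's strand with its first base at -47, and in none of the other 3. A window was found for 31 of the 37 measured members, with none for Psmb1, Psmb2, Psmb7, Psmc3, Psmd7 and Psmg2. Either core was present in 14 of 33 member windows (42.4%), in 30.6% of the windows of all genes tested and in 27.8% of all windows of the same length. By the call averaged over the genotypes, a core was present in 2 of 7 members that rose (Psmb5 and Psmc6), in 2 of 5 that fell (Psma7 and Psmc2) and in 10 of 19 that did not pass. A second motif searched on both strands, CCAAT, was present in 9 of 33 member windows (27.3%) and in 37.4% of all windows. A match describes these letters in this window and says nothing of binding.

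Among the 16 measured subunits of the 19S cap, 3 rose and 1 fell with the diet in WT, and 5 rose and 1 fell in KO, beside 25.4% and 27.6% of all genes called. Psmd2 and Psmc6, counted among those that rose, passed the filter through the high cholesterol arrays. The median difference of the 16 was -0.016 in WT and 0.049 in KO, and its sign turned under other scalings, to 0.006 in WT with cyclic loess and to -0.108 in KO with median scaling. The 10 non-ATPase subunits had a median of 0.121 in WT, which was -0.0145 under median scaling, and 0.307 in KO, which was 0.218. The 6 ATPases had a median of -0.192 in WT and -0.261 in KO, below 0 under each of the 5 scalings run.

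Psmd2 encodes the large subunit of the cap base on which ubiquitin receptors and shuttle proteins dock. Its log2 signal was 4.45, 4.75, 4.5 and 4.62 in chow WT, 6.92, 6.89, 6.68 and 6.70 in high cholesterol WT, 4.70, 4.48, 4.98 and 4.69 in chow KO, and 6.92, 7.39, 7.40 and 7.08 in high cholesterol KO. Every high cholesterol array lay above every chow array. The probe was detected on 1 of 8 chow arrays and on 8 of 8 high cholesterol arrays, so it passed the filter through the diet in which it was high. In WT, where no chow array detected it, Psmd2 was at least 3.72-fold higher on high cholesterol (fitted difference 2.22 ± 0.14 SE, adjusted p = 2.05e-08). In KO, where 1 of 4 chow arrays detected it, the fitted difference was 2.49 ± 0.14 (adjusted p = 3.79e-09), and no fold is given, since 3 of the 4 chow arrays did not detect it. The deposited signal of this probe before correction was -1.6 to 11 on chow and 105.8 to 144.2 on high cholesterol. The second Psmd2 probe gave signals of -6.1 to 13.1, was detected on 1 of 16 arrays, a chow KO array, and did not follow the first. The Psmd2 result therefore rests on 1 of its 2 probes, and the sources used here do not say which transcripts the probes read.

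Psmd8, a subunit of the lid that covers the side of the cap, was detected on all arrays. Its log2 signal was 10.02, 10.00, 9.92 and 9.89 in chow WT and 11.06, 10.34, 10.89 and 10.57 in high cholesterol WT. It was 10.14, 10.07, 10.26 and 10.06 in chow KO and 10.43, 10.78, 10.84 and 10.67 in high cholesterol KO. The diets did not overlap in either genotype. Psmd8 rose by 0.76 ± 0.15 in WT (1.69-fold, adjusted p = 0.00156) and by 0.55 ± 0.15 in KO (1.46-fold, adjusted p = 0.0119). The call in KO ended under median scaling.

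The lid subunits Psmd6 and Psmd11, the latter a brace between lid and core, rose in KO. Psmd6 had log2 signals of 4.93, 5.44, 5.21 and 4.90 in chow KO and 5.86, 5.36, 5.93 and 5.99 in high cholesterol KO, where 1 high cholesterol array lay inside the chow range. The difference was 0.66 ± 0.19 (1.58-fold, adjusted p = 0.0170), and the probe was detected on 14 of 16 arrays. The call ended without chow KO replicate 1 or 4 or high cholesterol KO replicate 4. In WT, where Psmd6 was 5.56, 5.10, 4.99 and 5.18 on chow and 6.00, 5.63, 5.19 and 5.51 on high cholesterol, the difference was 0.37 ± 0.19 (adjusted p = 0.162). Psmd11 was 7.04, 6.71, 7.17 and 7.02 in chow KO and 7.47, 7.41, 7.59 and 7.68 in high cholesterol KO, without overlap. Its difference of 0.55 ± 0.19 (1.47-fold, adjusted p = 0.0419) lost its call in 10 of 28 alternative settings, among them median scaling and leaving out any of 7 single KO arrays (chow replicates 1, 2 and 4 and all 4 on high cholesterol). In WT Psmd11 was 7.56, 6.96, 6.89 and 7.41 on chow and 7.33, 7.16, 7.51 and 8.10 on high cholesterol, a difference of 0.32 ± 0.19 (adjusted p = 0.238).

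Of the 6 ATPases, Psmc3 fell in WT, Psmc2 fell in KO and Psmc6 rose in both. Psmc3 was 10.36, 10.43, 10.31 and 10.26 in chow WT and 9.71, 9.71, 10.05 and 9.99 in high cholesterol WT, without overlap. It fell by 0.47 ± 0.13 (1.39-fold lower, adjusted p = 0.0154). In KO Psmc3 was 10.17, 10.32, 10.40 and 10.45 on chow and 9.77, 9.92, 10.23 and 10.17 on high cholesterol, a difference of -0.31 ± 0.13 (adjusted p = 0.0877). Psmc2 was 12.05, 12.06, 12.14 and 12.12 in chow KO, a narrow range, and 11.39, 11.76, 11.58 and 11.79 in high cholesterol KO. It fell by 0.46 ± 0.14 there (1.37-fold lower, adjusted p = 0.0204), a call that ended without chow KO replicate 3 or high cholesterol KO replicate 1. In WT Psmc2 was 11.91, 11.46, 11.91 and 11.64 on chow and 11.67, 11.36, 11.70 and 11.72 on high cholesterol, a difference of -0.12 ± 0.14 (adjusted p = 0.566).

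Psmc6 was dim. Its log2 signal was 4.42 to 4.51 in chow WT, 4.38 to 4.57 in chow KO, 4.72 to 5.36 in high cholesterol WT and 4.61 to 5.30 in high cholesterol KO, and it was detected on 4 arrays, all of them high cholesterol. It too passed the filter only through the diet in which it was high. The fitted difference was 0.52 ± 0.16 in WT (adjusted p = 0.0220) and 0.55 ± 0.16 in KO (adjusted p = 0.0153). No fold or bound is given, since only 2 of 4 high cholesterol arrays in each genotype detected Psmc6. Both calls ended without the background correction and in the authors' normalized values.

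Averaged over the genotypes, 2 further cap subunits fell. Psmd4, a ubiquitin receptor of the cap, was 12.06, 12.10, 12.35 and 11.99 in chow WT, 11.92, 11.48, 12.11 and 11.94 in high cholesterol WT, 12.33, 12.51, 12.56 and 12.49 in chow KO and 11.88, 12.25, 12.15 and 12.19 in high cholesterol KO. The diets overlapped in WT and not in KO, and the averaged difference was -0.31 ± 0.10 (adjusted p = 0.0219). The ATPase Psmc1 was 9.62, 9.72, 9.43 and 9.43 in chow WT, 9.43, 8.96, 9.34 and 9.34 in high cholesterol WT, 9.50, 9.61, 9.77 and 9.61 in chow KO and 9.36, 9.37, 9.61 and 9.33 in high cholesterol KO. Its averaged difference of -0.24 ± 0.09 (adjusted p = 0.0428) lost its call in 11 of 27 settings, which included cyclic loess, the replicate number as a block and leaving out chow WT replicate 1 or 2, chow KO replicate 2, 3 or 4, high cholesterol WT replicate 2, or high cholesterol KO replicate 1, 2 or 4. Psmc4, Psmc5, the scaffold subunit Psmd1, the deubiquitinase Psmd14 and the lid subunits Psmd7, Psmd12 and Psmd13 passed in none of the diet comparisons, with differences from -0.27 (Psmc5) to 0.19 (Psmd14) in WT and from -0.32 (Psmc4) to 0.31 (Psmd1 and Psmd14) in KO.

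**Figure D2:**
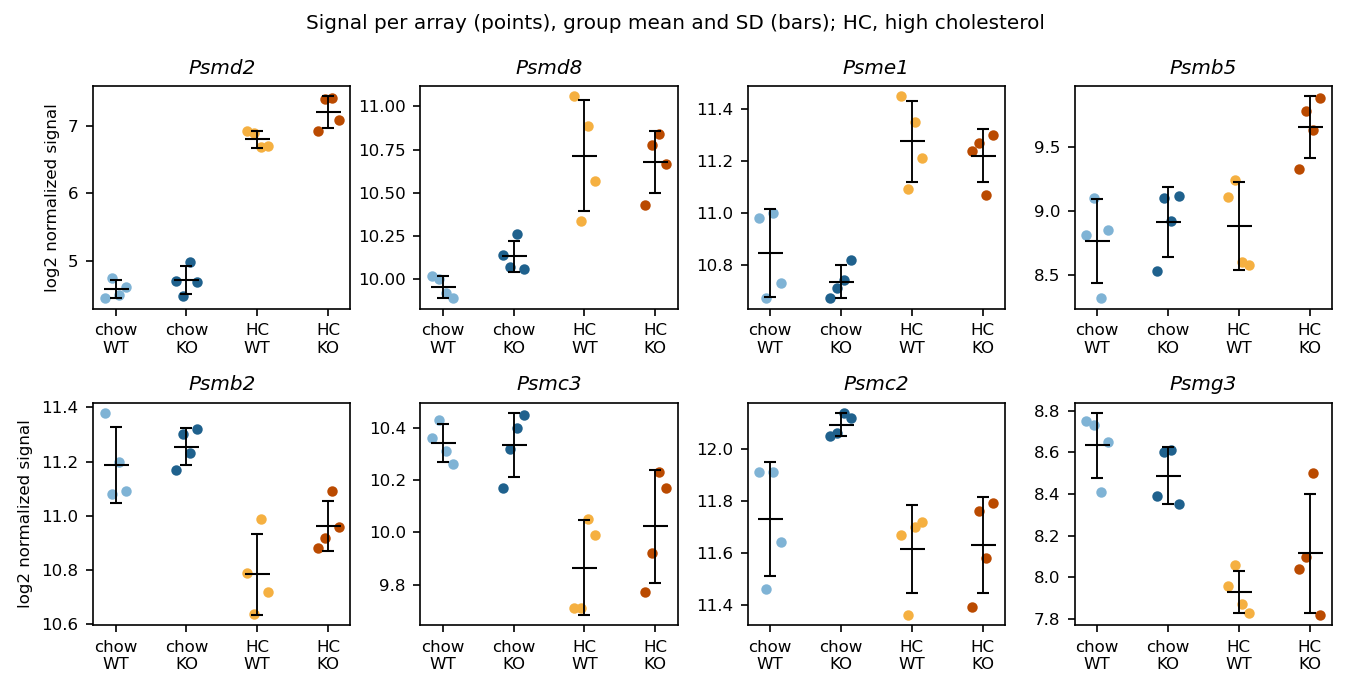
Log2 signal on each of the 16 arrays for 8 proteasome genes, one panel per gene with its own y axis, by group on the x axis. Points are arrays and bars are the group mean with its SD (n = 4). Psmd2 lies between 4.45 and 4.98 on chow and between 6.68 and 7.40 on high cholesterol, and Psmb5 lies highest in high cholesterol KO, between 9.33 and 9.88.

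Of the 11 measured genes of the 20S core (4 alpha, 7 beta) 0 rose and 1 fell in WT, and 1 rose and 0 fell in KO, beside 25.4% and 27.6% of all genes called. The core median was -0.20 in WT and -0.13 in KO, below 0 under each of the 5 scalings run, but median scaling raised the number that fell to 5 in WT and 2 in KO, beside 1315 and 1347 of 9265 genes. Under it the median was -0.523 in WT and -0.307 in KO.

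Psmb2, a beta subunit without a cutting site, fell in WT. Its log2 signal was 11.38, 11.08, 11.20 and 11.09 in chow WT and 10.79, 10.64, 10.99 and 10.72 in high cholesterol WT, without overlap. The fall was 0.40 ± 0.12 (1.32-fold lower, adjusted p = 0.0191), and the call ended in a fit of the WT arrays alone and without chow WT replicate 1 or high cholesterol WT replicate 2. In KO Psmb2 was 11.17, 11.30, 11.23 and 11.32 on chow and 10.88, 10.92, 11.09 and 10.96 on high cholesterol, also without overlap, with a difference of -0.29 ± 0.12 (adjusted p = 0.0762). Averaged over the genotypes it fell by 0.35 ± 0.08 (adjusted p = 0.00312), and its other kept probe fell by 0.51 (adjusted p = 0.000404). That other probe passed in both genotypes, with -0.61 in WT (adjusted p = 0.00365 over probes) and -0.42 in KO (adjusted p = 0.0291).

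Psmb5, which holds the chymotrypsin-like cutting site, rose in KO. Its log2 signal was 8.53, 9.10, 8.92 and 9.12 in chow KO and 9.33, 9.78, 9.63 and 9.88 in high cholesterol KO, without overlap. The rise was 0.74 ± 0.20 (1.67-fold, adjusted p = 0.0112), and this call held in each of the settings run. In WT it was 8.81, 9.10, 8.32 and 8.85 on chow and 9.11, 9.24, 8.60 and 8.58 on high cholesterol, a difference of 0.11 ± 0.20 (adjusted p = 0.710). The difference between these 2 responses, the interaction, was 0.63 ± 0.28 (95% interval 0.03 to 1.23) and did not pass over all genes (adjusted p = 0.463).

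The alpha ring subunit Psma7 fell in the averaged comparison alone. It was 10.52, 10.93, 10.74 and 10.48 in chow WT, 9.96, 10.04, 10.12 and 10.70 in high cholesterol WT, 10.24, 10.64, 10.73 and 10.75 in chow KO and 10.14, 10.37, 10.21 and 10.79 in high cholesterol KO, so the diets overlapped in both genotypes. The averaged difference was -0.34 ± 0.13 (adjusted p = 0.0470), and the call was lost in 16 of 27 settings, which included leaving out chow WT replicate 2 or 3, chow KO replicate 2, 3 or 4, high cholesterol WT replicate 1, 2 or 3, or high cholesterol KO replicate 1, 2 or 3. The alpha subunits Psma2, Psma4 and Psma5 and the beta subunits Psmb1, Psmb3, Psmb4, Psmb6 and Psmb7 passed in none of the diet comparisons. By brightest probe, their differences ran from -0.30 (Psmb7) to 0.12 (Psmb4) in WT and from -0.23 (Psma5) to 0.20 (Psmb1) in KO.

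Among the assembly chaperones, Psmg3, which helps form the alpha ring, fell in WT. It was 8.75, 8.73, 8.41 and 8.65 in chow WT and 7.96, 8.06, 7.87 and 7.83 in high cholesterol WT, without overlap, and fell by 0.71 ± 0.14 (1.63-fold lower, adjusted p = 0.00203). In KO it was 8.39, 8.60, 8.61 and 8.35 on chow and 8.04, 8.10, 8.5 and 7.82 on high cholesterol, where replicate 3 lay inside the chow range, and the difference was -0.37 ± 0.14 (adjusted p = 0.0642). Averaged over the genotypes Psmg3 fell by 0.54 ± 0.10 (adjusted p = 0.000484). The partner of Psmg1, Psmg2, was 8.71, 8.45, 8.21 and 8.26 in chow WT, 7.83, 8.09, 8.55 and 7.99 in high cholesterol WT, 8.20, 8.68, 8.63 and 8.58 in chow KO and 7.91, 8.38, 7.94 and 7.98 in high cholesterol KO, with overlap in both genotypes. Its brightest probe fell by 0.38 ± 0.12 (adjusted p = 0.0184), while its other probe rose by 0.46 (adjusted p = 0.00658), so no direction is given for the gene. The chaperones of the cap base did not pass by their brightest probes: Psmd5 had differences of 0.04 and -0.36 in WT and KO, Psmd9 of 0.14 and 0.52 (adjusted p = 0.0581 in KO) and Psmd10 of -0.32 and 0.06.

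Of the other caps, Psme1 rose in both genotypes. It encodes the alpha subunit of PA28, a ring that opens the core without ATP and is known to respond to interferon. Psme1 was 10.98, 10.67, 11.00 and 10.73 in chow WT, 11.45, 11.09, 11.35 and 11.21 in high cholesterol WT, 10.67, 10.71, 10.74 and 10.82 in chow KO and 11.24, 11.27, 11.07 and 11.30 in high cholesterol KO. Every high cholesterol array lay above every chow array. It rose by 0.43 ± 0.12 in WT (1.35-fold, adjusted p = 0.0167) and by 0.48 ± 0.12 in KO (1.40-fold, adjusted p = 0.00791), and both calls ended under median scaling. The WT call also ended without chow WT replicate 2 or high cholesterol WT replicate 1. A second Psme1 probe rose by 0.26 averaged over the genotypes (adjusted p = 0.0212) and did not pass in WT (0.27, adjusted p = 0.120) or in KO (0.26, adjusted p = 0.124) alone. Psme2, the beta subunit of the same ring, had differences of -0.33 ± 0.18 in WT and 0.08 ± 0.18 in KO and did not pass.

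By their brightest probes, the nuclear cap Psme3, the large single-chain cap Psme4 and Psmf1 passed in none of the diet comparisons. Psmf1 was 9.97, 9.87, 10.37 and 10.16 in chow KO and 9.75, 9.77, 9.50 and 9.60 in high cholesterol KO, without overlap, with a difference of -0.44 ± 0.16 that just missed the threshold (adjusted p = 0.0531). In WT its difference was -0.07 ± 0.16. Psme3 had differences of -0.07 ± 0.21 in WT and 0.45 ± 0.21 in KO, and Psme4 of 0.06 ± 0.14 and -0.24 ± 0.14. A dim second Psme4 probe gave -0.42 in KO (adjusted p = 0.0326 over probes), which passed, and -0.14 in WT (adjusted p = 0.490). It was detected on 4 arrays, all of them chow, so it passed the filter through the diet in which it was high.

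Counted by overlap of the diet groups, 4 members were higher and 3 lower without overlap in WT, where 25.4% of all genes had groups that did not overlap. In KO 7 were higher and 7 lower, where 30.3% of all genes did not overlap. Over both genotypes together, 4 members (Psmd2, Psmd8, Psmc6 and Psme1) were higher on all 8 high cholesterol arrays than on all 8 chow arrays and 0 were lower on all, against 10% of all genes, 6.32% higher and 3.68% lower. Psmd2 and Psmc6, counted as higher each time, passed the filter through the diet in which they were high. Psmc6 was detected on 4 of 16 arrays. Its highest chow value was 4.57, and its lowest high cholesterol value was 4.61, on an array that did not detect it. Among the 33 members detected on all 16 arrays, which leaves out Psmd2 and Psmc6, the counts were 2 higher and 3 lower in WT, 5 and 7 in KO, and 2 and 0 over both. The share of all genes without overlap was not computed under that restriction, so these counts have no background to be read against.

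In the averaged comparison, which uses 8 arrays per diet, the members that rose were Psmd2 (fitted difference 2.35 ± 0.10, against a chow level detected on 1 of 8 arrays), Psmd8 (0.65 ± 0.11), Psmc6 (fitted difference 0.54 ± 0.11, detected on 4 of 16 arrays), Psmd6 (0.52 ± 0.14), Psme1 (0.46 ± 0.09), Psmd11 (0.44 ± 0.14) and Psmb5 (0.43 ± 0.14). The calls of Psme1, Psmd11 and Psmb5 ended under median scaling. Those that fell were Psmg3, Psmc3 (by 0.39 ± 0.09), the brightest probe of Psmg2, Psmb2, Psmd4, Psmc2 (by 0.29 ± 0.10), Psmc1 and Psma7. The Psmc2 call ended without chow WT replicate 3, high cholesterol WT replicate 2 or high cholesterol KO replicate 1.

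**Figure D3:**
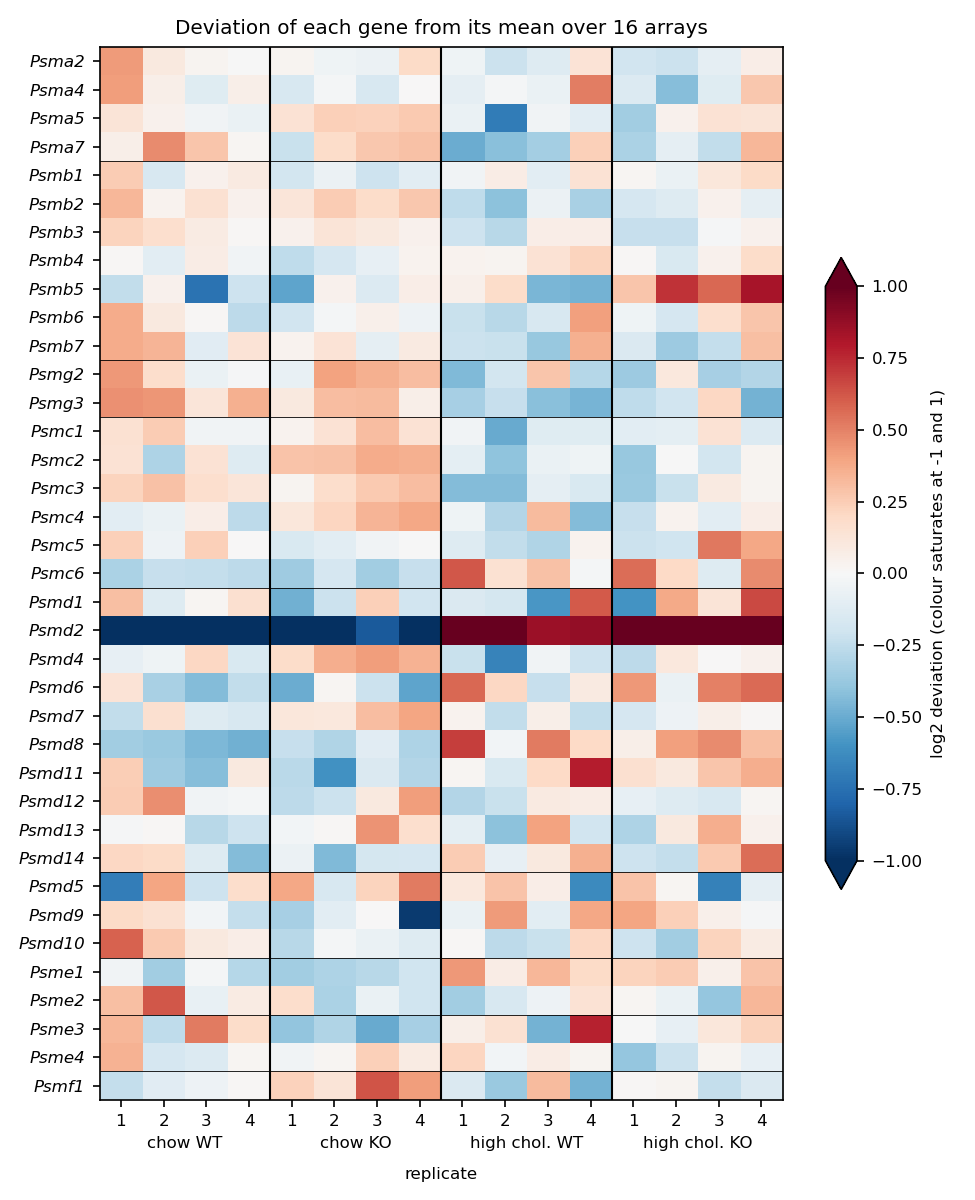
Deviation of each of the 37 measured proteasome genes (rows, by role) from its own mean over the 16 arrays (columns, by group), in log2 units, with colour saturating at 1 in either direction. The Psmd2 row changes colour between the diets, and most other rows do not follow the diet in all arrays.

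The whole set of 37 was read on each array as the mean deviation of the members from their own means. It ran from -0.083 to 0.093 in chow WT, -0.12 to 0.05 in chow KO, -0.135 to 0.073 in high cholesterol WT and -0.058 to 0.19 in high cholesterol KO, so the 4 groups overlapped. The SD between arrays of a group had a median of 0.215 over these genes (0.112 for Psmb4 to 0.406 for Psmd1), beside 0.254 over all genes.

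The diet comparisons in WT and KO share no arrays, and their values for the members were set side by side. Across the 37 genes the differences had a Pearson r of 0.868 and a Spearman rho of 0.61, and without Psmd2 an r of 0.68. The sign was the same in 27 of 37 (73%), beside 75.7% of all genes, and all-gene r was 0.753. Genes are not independent replicates, so these are descriptions. Of the members, 4 were called higher in both genotypes and 0 lower in both, beside 840 and 529 of 9265 genes. Psmd2 and Psmc6, among the 4, passed the filter through the diet in which they were high.

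**Figure D4:**
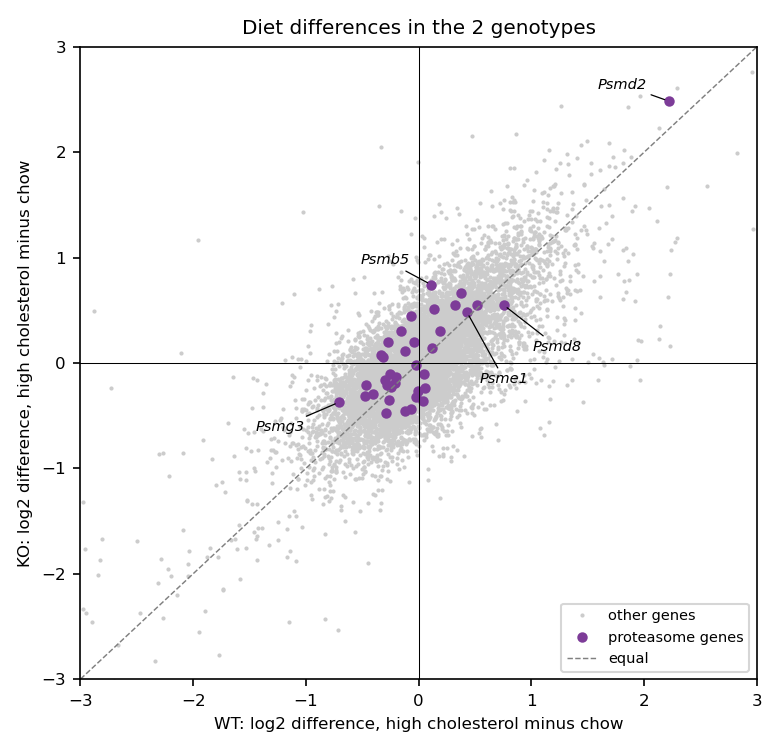
Diet difference in KO (y axis) against that in WT (x axis), in log2 units, with all 9265 genes in grey and the 37 proteasome genes coloured. Psmd2 stands at the upper right at 2.22 and 2.49, and 31 of the other genes lie outside the axes, which stop at 3 in either direction.

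Probes of the same gene did not always move the same way with the diet. Of the 13 genes with several kept probes, the diet difference had opposite signs among probes for 6 in WT (Psmb7, Psmd10, Psmd12, Psmd7, Psme4 and Psmg2) and for 5 in KO (Psmb7, Psmc5, Psmd10, Psmd12 and Psmg2). Averaged over the genotypes, the 3 Psmd10 probes gave -0.13, -0.42 (adjusted p = 0.0219) and 0.53 (adjusted p = 0.000701). The brightest Psmd12 probe gave -0.18 and the other 0.58 (adjusted p = 0.00884). The second Psmd11 probe gave 0.43, close to the 0.44 of the first, but with 0.74 in WT (adjusted p = 0.00901) and 0.12 in KO it placed the change in the other genotype. A second Psmf1 probe fell by 0.48 (adjusted p = 0.00417), where the brightest gave -0.25, and a dim second Psme4 probe, detected on 4 arrays, fell by 0.28 (adjusted p = 0.0293), where the brightest gave -0.09. The sources used here do not give the transcript each probe reads.

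**Figure D5:**
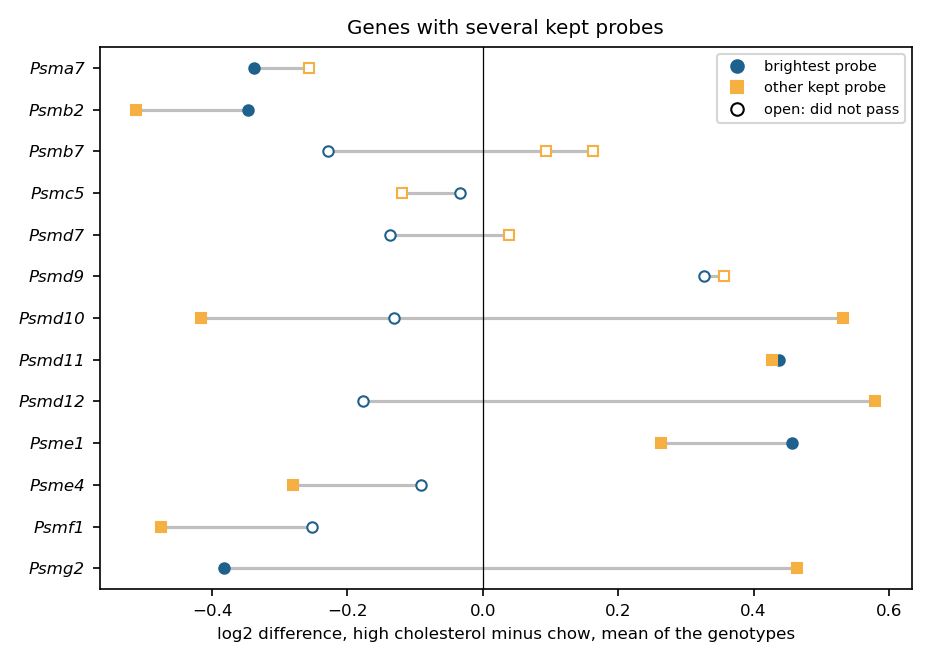
Difference between high cholesterol and chow averaged over the genotypes, in log2 units on the x axis, for every kept probe of the 13 genes with several. Open points did not pass an adjusted p of 0.05 over probes. The probes of Psmd10 run from -0.42 to 0.53 and those of Psmg2 from -0.38 to 0.46.

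Loss of c-Met changed no proteasome gene past the threshold in the fit used here. On chow, 0 of 37 passed, as did 0% of all genes tested, and 7 members had an unadjusted p under 0.05, beside 1472 of all genes. With array weights instead, 1 of 37 was lower on chow, where 175 of 9265 genes were higher and 179 lower. The smallest p belonged to Psme3, Psmf1 and Psmc2. Psme3 was 10.07, 9.48, 10.25 and 9.92 in chow WT and 9.34, 9.43, 9.23 and 9.40 in chow KO, a difference of -0.58 ± 0.21 (adjusted p = 0.208). Psmf1 was 9.50, 9.63, 9.69 and 9.75 in chow WT against the higher chow KO values given above, a difference of 0.45 ± 0.16 (adjusted p = 0.208). Psmc2 differed by 0.36 ± 0.14 (adjusted p = 0.226). None of these 3 overlapped between genotypes on chow, and in all 5 members were higher and 2 lower without overlap, where 13.7% of all genes did not overlap, 7.49% higher and 6.24% lower. These chow KO arrays also enter the diet comparison in KO, in which Psmc2 fell and Psmf1 had a difference of -0.44. The median over the members was -0.08 on chow and 0.05 on high cholesterol, and under median scaling -0.245 and -0.104, where the all-gene medians were -0.121 and -0.137.

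On high cholesterol, 0 of 37 passed in either direction (0.162% of all genes, 0.054% higher and 0.108% lower), with 2 at an unadjusted p under 0.05, beside 912 of 9265 genes. Psmb5 was 9.11, 9.24, 8.60 and 8.58 in WT and 9.33, 9.78, 9.63 and 9.88 in KO. It was the only member without overlap, where 3.92% of all genes did not overlap (1.81% higher and 2.1% lower), and its difference was 0.77 ± 0.20 (1.71-fold, adjusted p = 0.171). Psmd2 differed by 0.40 ± 0.14 (adjusted p = 0.330) and Psmd4 by 0.26 ± 0.14 (adjusted p = 0.596). Averaged over the diets, 0 of 37 passed (0.108% of all genes, 0.0432% higher and 0.0648% lower), 5 had an unadjusted p under 0.05 (1434 of 9265 genes), and 0 were without overlap, beside 0.0216% of all genes. The smallest p belonged to Psmb5 (0.46 ± 0.14, adjusted p = 0.159), Psmd4 (0.30 ± 0.10, adjusted p = 0.184) and Psmd2 (0.27 ± 0.10, adjusted p = 0.227). The Psmd2 value takes in the chow arrays, of which 1 of 8 detected it, and so is not a measured difference in level on chow.

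No member passed the test of a difference in diet response between the genotypes (0 of 37, beside 0.0108% of all genes), with 1 at an unadjusted p under 0.05, beside 966 of 9265 genes. After Psmb5, the smallest p belonged to Psmc5 and Psme3. Psmc5, an ATPase, was 10.61, 10.32, 10.61 and 10.38 in chow WT, 10.24, 10.13, 10.07 and 10.41 in high cholesterol WT, 10.22, 10.27, 10.34 and 10.37 in chow KO and 10.16, 10.17, 10.90 and 10.76 in high cholesterol KO, an interaction of 0.47 ± 0.23 (adjusted p = 0.498). Psme3, at 9.79, 9.89, 9.26 and 10.50 in high cholesterol WT and 9.73, 9.65, 9.85 and 9.96 in high cholesterol KO, had an interaction of 0.52 ± 0.29 (adjusted p = 0.559). The interaction was above 0 in 27 of 37 members and in 51.17% of all genes, and in the 20S core in 11 of 11 under each of the 5 scalings run, with a median of 0.113. The members share their arrays, so they are not independent counts.

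A missed threshold does not show equal levels. The 95% interval of the difference lay within 0.5 of 0 for 17 of 37 members on chow, 24 on high cholesterol, 32 averaged over the diets and 7 for the interaction. It lay within 1 of 0 for 36, 36, 37 and 33.

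The immunoproteasome subunits, which replace the cutting beta subunits in immune cells and under interferon, were read beside the constitutive ones. Psmb10 was 9.66, 10.01, 9.49 and 9.64 in chow KO and 10.02, 10.35, 10.44 and 10.12 in high cholesterol KO, and rose by 0.53 ± 0.16 (adjusted p = 0.0171), a call that median scaling ended. In WT it differed by 0.37 ± 0.16 (adjusted p = 0.0861). Psmb8, which replaces Psmb5, differed by 0.14 ± 0.21 in WT (adjusted p = 0.669) and 0.52 ± 0.21 in KO (adjusted p = 0.0783). Psmb9 differed by -0.06 ± 0.26 and 0.15 ± 0.26.

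Genes around the proteasome gave a mixed picture under the diet. The shares of all genes to set beside these counts were 13.6% higher and 11.8% lower in WT, and 15.2% and 12.4% in KO. Under median scaling 1099 of 9265 genes rose and 1315 fell in WT, and 1016 and 1347 in KO. Of 13 measured proteasome partners, 1 rose and 2 fell in WT and 3 rose and 1 fell in KO, and median scaling gave 0 and 2, and 1 and 2. Adrm1, a ubiquitin receptor of the cap, fell by 0.53 ± 0.16 in WT (adjusted p = 0.0220) and differed by 0.01 in KO (adjusted p = 0.983). The core maturation factor Pomp differed by -0.22 (adjusted p = 0.249) and -0.28 (adjusted p = 0.139), and the cap-bound deubiquitinase Usp14 by 0.50 (adjusted p = 0.238) and 0.54 (adjusted p = 0.186). Of 13 genes of ubiquitin and its activation, 1 rose and 1 fell in each genotype (under median scaling 3 fell in WT and 2 in KO), with the ubiquitin-conjugating enzyme Cdc34 up by 1.07 (adjusted p = 0.0048) and 1.16 (adjusted p = 0.00242).

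The transcription factor Nfe2l1 differed by 0.08 ± 0.14 in WT (adjusted p = 0.725) and 0.12 ± 0.14 in KO (adjusted p = 0.563), and of 8 measured genes of its processing and MAF partners 1 rose and 1 fell in WT and 1 rose and 0 fell in KO, where median scaling gave 1 lower. Of 25 measured NRF2 target genes, 16 rose and 0 fell in WT (median 0.76) and 14 rose and 0 fell in KO (median 0.55), and median scaling gave 12 and 2, and 10 and 1. The glutathione transferase Gsta1 rose by 6.04 and 4.58. Nfe2l2, of the 2 NRF2 regulators, rose by 0.55 ± 0.19 in WT (adjusted p = 0.0431), a call that median scaling ended, and differed by -0.05 ± 0.19 in KO, and Keap1, which holds NRF2 inactive, differed by 0.02 and 0.10. The difference between these counts and those of the proteasome genes was not tested. Over all genes, 13.6% rose and 11.8% fell in WT, and 15.2% rose and 12.4% fell in KO. Median scaling gave 1099 higher and 1315 lower of 9265 genes in WT, and 1016 and 1347 in KO. Of 15 cytosolic chaperones 3 rose in WT and 7 in KO with 0 lower, and median scaling gave 2 higher and 1 lower, and 2 and 0. Of 15 interferon response genes, a list that holds Psme1 and Psme2, only Psme1 rose in each genotype and 0 fell, while median scaling gave 0 higher and 1 lower in WT and 0 of either in KO, and cyclic loess 2 higher in KO.

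Markers of other cell types moved with the diet beside these results, and their part in them was not tested. The all-gene shares beside the counts were 13.6% higher and 11.8% lower in WT, and 15.2% and 12.4% in KO. Of 10 measured recruited macrophage markers of 15 on the array, 10 rose in WT and 8 in KO. Their summed linear signal was 2240 to 2968 in chow WT, 2613 to 3099 in chow KO, 6180 to 15120 in high cholesterol WT and 4638 to 9324 in high cholesterol KO (Lyz1, Itgax, Trem2, Ccr2 and S100a4 were not kept). Of 11 Kupffer cell markers 1 rose in WT and 3 in KO (median scaling also gave 1 lower in WT), with sums of 3371 to 3930, 3181 to 4280, 3100 to 4277 and 3255 to 8375 in the same order of groups (Cd5l was not kept). Of 5 cholangiocyte markers 2 rose in each genotype, with sums of 411 to 1025, 561.9 to 791.8, 2607 to 6139 and 1047 to 2761 (Krt19 and Cftr were not kept).

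Of 13 hepatocyte markers 1 rose and 1 fell in WT and 2 rose and 1 fell in KO, where the same all-gene shares apply. Under median scaling 7 fell in WT and 6 in KO, beside 1315 and 1347 of 9265 genes. Their sums were 185500 to 196400, 187800 to 194300, 169100 to 181300 and 168200 to 187400. Of 12 cell cycle genes 6 rose in WT and 1 in KO, with sums of 916.3 to 1098, 1040 to 1484, 2764 to 7411 and 3300 to 5887 (Ccnb1, Ccnb2, Ccna2 and Pcna were not kept). Of 9 stellate and fibroblast markers 5 rose in WT and 1 fell in KO (3 and 0 under median scaling), with sums of 4109 to 6109, 5239 to 7047, 6577 to 8838 and 5446 to 6715 (Col1a2 and Tagln were not kept). Of 11 endothelial markers 1 rose and 1 fell in WT and 2 fell in KO, with sums of 3738 to 4089, 4080 to 4524, 3423 to 5218 and 2813 to 3909. Of 7 neutrophil markers 1, S100a8, was measured and rose in both genotypes. Its signal was 23.59 to 46.59 and 27.11 to 65.81 on chow, and 185.6 to 378.7 and 140.5 to 678 on high cholesterol. The lowest chow signals lay near those of probes not detected, so the chow range may be background in part. S100a9, Ngp, Camp, Ltf, Mpo and Retnlg were not kept.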

How the data were processed

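Liver RNA was hybridised to 16 Illumina bead arrays. The deposited table holds, per probe, a non-normalized intensity and a detection p-value for each array, exported from GenomeStudio 2009.1 per the submitters' processing notes. The authors' normalized intensity values were used as an alternative. RNA was made into biotinylated cRNA, per the labels' protocols. The files give no slide or scan date.

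Intensities were corrected by normexp from the detection p-values (limma 3.58.1, R 4.3.3, offset 16), quantile normalized and put on a log2 scale. A probe was kept where 4 or more arrays detected it at 0.05 (12248 of 25697), and the brightest kept probe stood for each of 9265 genes. One mean per group was fitted over all 16 arrays (lmFit, eBayes), and 7 comparisons were tested two-sided with Benjamini-Hochberg adjustment at 0.05. Residual and prior degrees of freedom came to 17.42. A probe detected on no array of a group has only a bound there. Its change is written as "at least" where every array of the other group detected it. The procedure was tested on simulated data.

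The member genes and the 17 lists were chosen with earlier results of these data known. Any member may be named. Array values are given for members past the threshold, and for the 3 with the smallest p where none passed. Of other genes, the immunoproteasome subunits, Nfe2l1, Nfe2l2, Keap1, Adrm1, Pomp, Usp14 and up to 3 of the smallest p of each list are named. The lists cover proteasome partners, ubiquitin activation, the NRF1 route, NRF2 targets and regulators, interferon response, cytosolic chaperones, cell cycle and markers of liver cell types. The result of 1 marker list is not reported here. Alternatives were no background correction, other scalings (cyclic loess, median, the authors' values), stricter and no filters, other probe rules, other variance models, the groups compared alone, a block on the replicate number and each array left out. Figures were drawn with matplotlib 3.10.9 in Python 3.11.15.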

Additional observations from a re-analysis of the deposited data

Results flagged for a closer look

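In 6 of 148 groups of 4 arrays (4.05%), 1 array lay far from the other 3, with a gap to the nearest of the others, divided by the range of the group, above Dixon's 95% critical value. Chance gives about 1 group in 20. All 6 were high cholesterol groups. In high cholesterol WT, replicate 4 was high for the alpha ring gene Psma4 (12.11 against 11.51 to 11.58, ratio 0.872) and for the catalytic beta gene Psmb6 (11.57 against 10.88 to 11, ratio 0.837). Replicate 2 of that group was low for the alpha ring gene Psma5 (10.8 against 11.39 to 11.46, ratio 0.888) and for the ATPase gene Psmc2 (11.36 against 11.67 to 11.72, ratio 0.864). In high cholesterol KO, replicate 3 was high for the ATPase gene Psmc1 (9.61 against 9.33 to 9.37, ratio 0.87) and replicate 2 for the chaperone gene Psmg2 (8.38 against 7.91 to 7.98, ratio 0.847).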

How the results depend on the processing

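Over 29 alternative settings, 1327 of the recomputed values were classed as unchanged, 67 lost a call, 43 moved and 2 turned sign. For a gene, unchanged means the same direction and side of the threshold. A count had to stay within a set factor of its main value, or at 0, and a median within 0.0882. Of the 1327, 557 were counts or medians, which take in the genotype counts of 0. The calls of Psmd2, Psmd8, Psmg3 and Psmc3 in WT, of Psmd2 and Psmb5 in KO, and of Psmb2, Psmc3, Psmd2, Psmd4, Psmd6, Psmd8 and Psmg3 averaged over the genotypes held in every setting that gave them a value. The causes of the changes below were not tested. Median scaling gave 8 lower in WT (median -0.321), 4 higher and 9 lower in KO (median -0.256), 4 higher and 16 lower averaged (median -0.284), and KO against WT medians of -0.245 on chow, -0.104 on high cholesterol and -0.155 averaged. The mean of the probes gave 4 lower and a median of 0.0754 in KO, an averaged median of -0.0217, and a Psmg2 difference of 0.0409. Probes tested singly gave 5 lower in WT, 3 lower with a median of -0.0122 in KO, and 12 higher averaged, with the other Psmg2 probe at 0.464. In KO the number lower was 2 with no detection filter, 4 with a trended robust variance, 7 with array weights and 3 with the groups compared alone. Array weights gave 1 lower for KO against WT on chow, where they called 175 of 9265 genes higher and 179 lower. Probes detected on all 16 arrays, a setting chosen after seeing the data, gave 2 higher in WT and 4 each in KO and averaged.

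With each array left out in turn, WT had 2 to 4 higher, 2 to 4 lower and a median of -0.166 (without high cholesterol WT replicate 4) to -0.0573. KO had 4 to 8 higher, 0 to 3 lower and a median of -0.142 to 0.00875 (the last without chow KO replicate 4), and the averaged comparison 6 to 8 higher, 5 to 10 lower and a median of -0.15 to -0.0747. The count fell to 2 higher in WT without high cholesterol WT replicate 1, to 4 higher in KO without high cholesterol KO replicate 4, to 5 lower averaged without high cholesterol WT replicate 2 or high cholesterol KO replicate 1, and to 0 lower in KO without chow KO replicate 3 or high cholesterol KO replicate 1. The last count rose to 3 without high cholesterol WT replicate 3 and to 2 without chow WT replicate 1, chow KO replicate 1 or 2, high cholesterol WT replicate 1, 2 or 4, or high cholesterol KO replicate 2 or 3. The genotype comparisons and the interaction gave 0 calls throughout, with medians of -0.096 to -0.0114 on chow, 0.00811 to 0.0871 on high cholesterol, -0.0117 to 0.0475 averaged and 0.0342 to 0.146 for the interaction. The labels say nothing of what same-numbered arrays share beyond the number. Their r was -0.125 to 0.275 over 24 pairs, 7 over 0.1, beside -0.3 to 0.273 for other pairs. Of the 16 arrays, 11 correlated best with an array of their own number, a hint of a shared factor that was not tested. With the replicate number as a block, 4 members rose and 4 fell in WT, 7 rose and 1 fell in KO, and 7 rose and 7 fell averaged. Signal over background limits Psmd2 on chow and Psmc6 throughout.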
